A study of Mus musculus with 6 samples.

Results

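The 31 genes described here encode the proteins that carry glucose into the cell, the enzymes of glycolysis, lactate dehydrogenase and the lactate transporters, the kinases that set the flow between glycolysis and mitochondria, and Hif1a with targets of the hypoxia response. They were chosen by name, with earlier results of these data known, among 20832 genes named on the array. All 31 were among the 13729 genes tested. The samples were primary mouse prostate cultures, 3 labelled p53-/- Rb∆f/∆f (Rb deleted) and 3 labelled p53-/- Rbf/f (Rb intact), all without p53 per the labels. Rb deleted cultures received an adenovirus with Cre recombinase, which cuts out the floxed Rb gene, and Rb intact cultures an adenovirus with lacZ. RNA was taken 48 hours after infection. Cells grew in Prostacult medium without FBS, with the growth factors bFGF and bEGF, and the 3 cultures of a group came from independent experiments, per the series design. The virus and the state of Rb changed together, so their effects cannot be told apart, and the whole culture was infected, with no promoter limiting Cre to a cell type. The labels used here give neither the age of the mice nor the oxygen level of the cultures.

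Glycolysis turns glucose into pyruvate in the cytosol. Lactate dehydrogenase can reduce pyruvate to lactate, which leaves the cell through monocarboxylate transporters, while pyruvate that the mitochondrial carrier imports is turned into acetyl-CoA by pyruvate dehydrogenase. In low oxygen the transcription factor HIF-1, whose oxygen-sensitive subunit is Hif1a, binds short DNA elements at many of these genes and raises their transcription, together with genes for pH control, collagen hydroxylation and mitophagy. Prostate epithelium is known for secreting citrate in place of oxidising it.

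Each of the 6 arrays carried Cy3-labelled RNA of 1 culture, and levels are given as log2 processed intensity relative to that array's 75th percentile. Rb1, the targeted gene, read -3.11, -3.11 and -3.07 in Rb deleted cultures, against -1.15, -1.12 and -1.16 in Rb intact cultures, and fell to 25.8% of the intact signal (limma adjusted p = 8.14e-05). Where its probe lies relative to the deleted exon was not analysed here. The share of probes that Feature Extraction marked as well above background ranged from 58.9% to 63.3%, with no saturated spots. The arrays came from 2 slides, and Rb deleted 2 and 3 shared the second, apart from the other 4 arrays. Slide and Rb state were thus partly confounded. A fit with the slide as a block, like the first slide alone, takes its group difference from Rb deleted 1 against the 3 Rb intact arrays. On the second principal component, with 22.3% of the variance, Rb intact 1 stood apart at 22.84, against -15.07 and -14.51 for Rb intact 2 and 3. Of 7 basal epithelial markers, 4 were tested and 3 fell (Trp63, Itga6 and Col17a1), while 10.8% of all tested genes fell. The summed linear signal of the list was 20.8 to 21.5 times the 75th percentile in Rb deleted cultures and 28.8 to 34.4 times in Rb intact cultures, nearly all of it from Itga6. Without Itga6 it was 1.41 to 1.61 in Rb deleted cultures and 1.74 to 1.86 in Rb intact cultures, and Krt14, the tested basal keratin, differed by 0.07 ± 0.14 with overlapping groups. Krt15 and Krt6a were well above background on no array, and Krt5 was so on at most 3 arrays and was not tested. Col17a1 was dim, at a mean of -6.0 in Rb deleted and -5.53 in Rb intact cultures. None of the 5 tested luminal markers (of 10) passed the test, with a summed signal of 9.6 to 11.1 in Rb deleted and 11.1 to 12.4 in Rb intact cultures, and Psca and Hoxb13 were among those well above background on no array. Fibroblast and smooth muscle markers were detected in all cultures, with 9 of 11 tested and a sum of 347 to 376 in Rb deleted and 372 to 390 in Rb intact cultures, and Acta2 fell among them. Itga6 and Acta2 passed in all 6 fits that left out 1 array, while Trp63 (limma adjusted p up to 0.156) and Col17a1 (up to 0.108) did not. With the slide as a block Acta2 passed (limma adjusted p = 0.0410), while Itga6 (0.0753), Trp63 (0.409) and Col17a1 (0.282) did not. Leukocyte markers (3 of 7 tested) summed to 4.12 to 4.85 in Rb deleted and 2.74 to 6.79 in Rb intact cultures, with Ptprc among those well above background on no array. The lowest sum was that of Rb intact 1, where the leukocyte marker Itgam read 0.73, against 2.41 and 2.44 on Rb intact 2 and 3. Endothelial and erythroid markers (4 of 6 tested) summed to 3.32 to 4.02 in Rb deleted and 3.81 to 3.95 in Rb intact cultures. The part of these markers in the differences given here was not tested, and in bulk RNA fewer cells of a type and less RNA per cell cannot be told apart.

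Most of the pathway differed little between the groups. Of the 31 genes, 3 rose in Rb deleted cultures (Slc16a3, Pdk1 and Pfkl), 2 fell (Ldhb and Car9) and 26 did not pass the test, limma with a Benjamini-Hochberg adjusted p under 0.05 over all tested genes. The called share of 16.1% compares with 20.4% of all tested genes, of which 9.67% rose and 10.8% fell, so the members' share lay near that of genes at large. Their median difference, Rb deleted minus Rb intact, was 0.04 on the log2 scale, against 0.01 over all tested genes. The 3 values of each group did not overlap for 10 members that were higher in Rb deleted cultures (32.3%, against 23.7% of all genes) and 2 that were lower (6.45%, against 21.5%), together 38.7% of members, against 45.2% of all genes. An exact two-sided permutation test of 3 against 3 arrays cannot give a p below 0.1, so single genes are judged by the limma fit, which shares its estimate of the spread across genes. All 31 members were well above background on all 6 arrays.

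**Figure D1:**
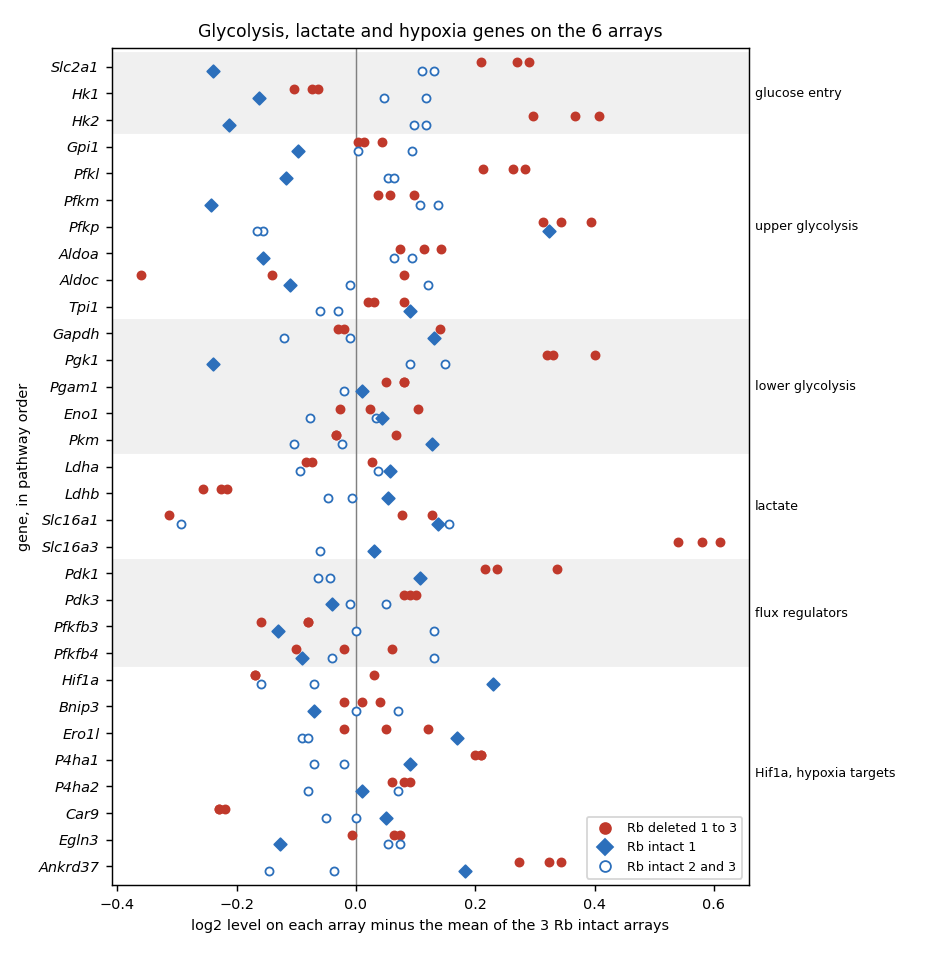
Level of each member on each of the 6 arrays (x axis, difference in log2 processed intensity from the gene's Rb intact mean), with genes in pathway order down the page, filled circles for Rb deleted arrays, a diamond for Rb intact 1 and open circles for Rb intact 2 and 3. Slc16a3 stands out on all 3 Rb deleted arrays, while Rb intact 1 departs from Rb intact 2 and 3 at many genes, among them Slc2a1, Pfkm, Pgk1 and Pfkp.

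**Figure D2:**
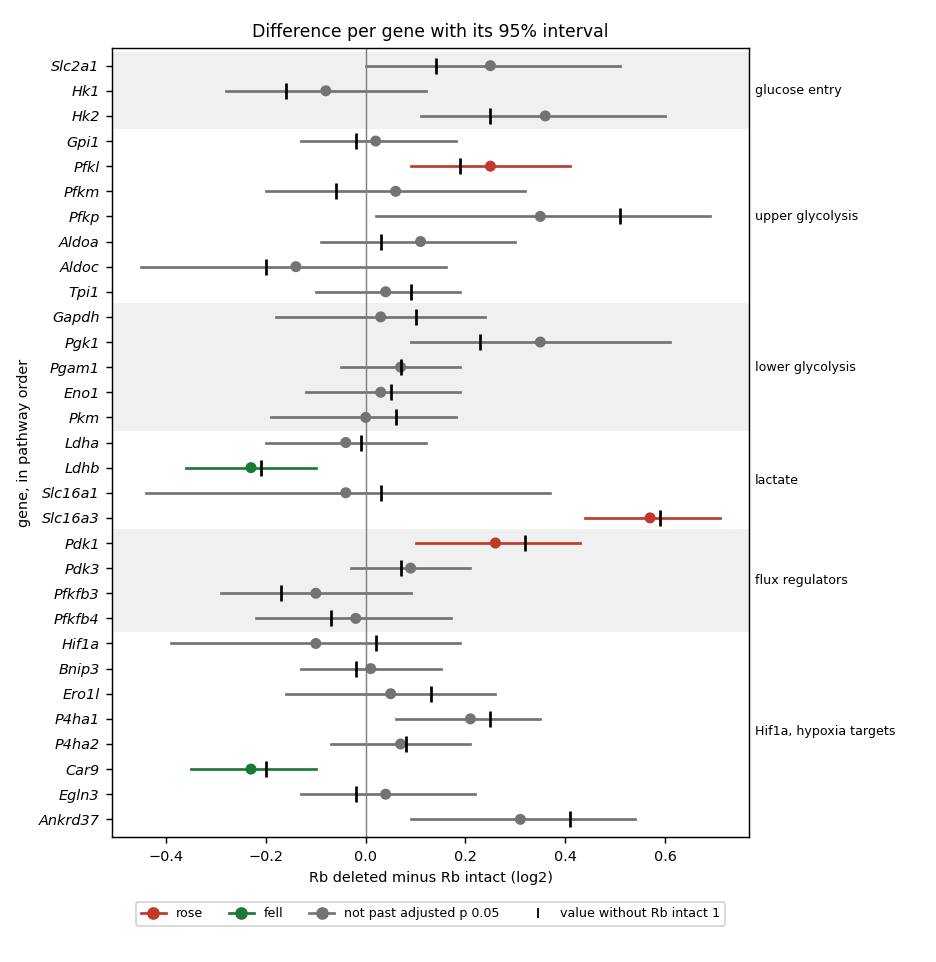
Difference in log2 level, Rb deleted minus Rb intact, for each member, with bars for the 95% confidence interval of the limma fit, unadjusted for the number of genes. Slc16a3 lies at 0.57 with an interval of 0.44 to 0.71, and the other 30 members lie between -0.23 and 0.36.

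Slc16a3, the monocarboxylate transporter MCT4 that exports lactate from glycolytic cells, changed most among the members. Its probe A_55_P2067505 read 4.43, 4.46 and 4.39 in Rb deleted cultures, against 3.88, 3.79 and 3.88 in Rb intact cultures. All Rb deleted arrays were above all Rb intact arrays, and the groups were further apart than any replicates of 1 group. The means were 4.43 ± 0.04 and 3.85 ± 0.05 (SD, n = 3 each), a rise of 0.57 ± 0.06 (SE), or 1.49-fold (limma adjusted p = 0.00155). A second probe of the transcript, A_55_P1959425, gave 4.43, 4.41 and 4.38 in Rb deleted cultures and 3.93, 3.77 and 3.91 in Rb intact cultures. It thus separated the groups by nearly the same amount, 0.53 ± 0.06 (limma adjusted p = 0.00308 over all probes). The rise passed the threshold in 17 of 18 other settings, at 0.42 to 0.59. The exception was the first slide alone, where a single Rb deleted array gave 0.57. The fit with the slide as a block takes its difference from that same array, so it is not a separate check.

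The other genes of lactate handling did not move with Slc16a3. Ldhb encodes the heart-type lactate dehydrogenase subunit, known to favour oxidation of lactate to pyruvate, and read 1.54, 1.57 and 1.58 in Rb deleted cultures, against 1.85, 1.79 and 1.75 in Rb intact cultures. All Rb deleted values lay below all Rb intact values. Ldhb fell by 0.23 ± 0.05 (SE, 95% interval -0.36 to -0.10), to 85.2% of the intact signal (limma adjusted p = 0.0284). Ldha, the muscle-type subunit known to favour lactate formation, read 6.92, 6.82 and 6.81 in Rb deleted cultures and 6.95, 6.80 and 6.93 in Rb intact cultures. Its groups overlapped, the difference of -0.04 ± 0.07 had an interval of -0.20 to 0.12 (limma adjusted p = 0.691), and its other probes both gave 0.07. Slc16a1, the transporter MCT1 that moves lactate in either direction, read -3.30, -3.35 and -3.74 in Rb deleted cultures and -3.29, -3.27 and -3.72 in Rb intact cultures. Replicate 3 was low in both groups, and the difference of -0.04 ± 0.17 left a wide interval of -0.44 to 0.37 (limma adjusted p = 0.891).

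The windows around the start sites of Slc16a3 and Ldhb, the called members of lactate handling, and of Car9, a textbook HIF-1 target that was lower in Rb deleted cultures, are shown because all 3 hold the core letters of the hypoxia response element. Each is 250 bases before to 50 bases after the RefSeq start on GRCm38.p6, on the gene's strand, with ACGTG or GCGTG on either strand in capitals.
Slc16a3, chr11:120948817-120949116, plus strand: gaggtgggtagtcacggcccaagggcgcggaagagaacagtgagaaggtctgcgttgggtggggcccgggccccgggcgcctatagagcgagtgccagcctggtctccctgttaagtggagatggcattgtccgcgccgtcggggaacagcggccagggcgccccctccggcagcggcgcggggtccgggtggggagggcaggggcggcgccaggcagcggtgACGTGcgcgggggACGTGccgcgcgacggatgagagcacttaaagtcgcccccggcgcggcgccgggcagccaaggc
Ldhb, chr6:142507908-142508207, minus strand: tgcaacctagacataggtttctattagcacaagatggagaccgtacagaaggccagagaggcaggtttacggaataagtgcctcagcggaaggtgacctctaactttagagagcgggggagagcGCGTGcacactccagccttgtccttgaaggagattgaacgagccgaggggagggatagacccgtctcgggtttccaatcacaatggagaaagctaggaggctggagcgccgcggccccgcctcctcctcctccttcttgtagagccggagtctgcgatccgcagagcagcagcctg
Car9, chr4:43506776-43507075, plus strand: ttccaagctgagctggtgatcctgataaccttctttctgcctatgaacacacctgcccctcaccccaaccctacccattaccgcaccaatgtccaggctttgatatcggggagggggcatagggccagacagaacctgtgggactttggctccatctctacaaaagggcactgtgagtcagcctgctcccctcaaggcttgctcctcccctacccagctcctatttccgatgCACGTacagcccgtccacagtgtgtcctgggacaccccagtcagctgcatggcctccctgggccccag
Slc16a3 held ACGTG in 2 places, Ldhb held GCGTG in 1 place, and Car9 held ACGTG in 1 place, read on the opposite strand. These 3 genes were shown because they hold the letters, so the presence of the letters says nothing on direction. ACGTG or GCGTG was found at 29 of the 31 members. A match describes the sequence and does not show that a factor binds.

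Across the members such letters were common. ACGTG or GCGTG, either strand, was found in 37 of 44 start-site windows of the 31 genes (84.1%), against 43.8% of 32851 windows of all genes. ACGTG alone was in 59.1% of member windows, against 19.6% of all windows, and at 10 of 16 enzymes and 7 of 7 hypoxia targets. The member windows were also rich in CG pairs, with a median of 21 against 7 over all windows. Among windows with at least 21 CG pairs, ACGTG or GCGTG was in 91.3% of 23 member windows and in 74.0% of 8148 windows of all genes. E2F factors are the DNA-binding partners that Rb restrains, and an E2F-like element, spelled TTTCGCGC, TTTGGCGC, TTTCCCGC or TTTGCCGC on either strand, was in 0 of 44 member windows and in 2.26% of all windows. That count covers these letters in these windows only, and some windows of the same gene overlap. With so low a share over all windows, 0 of 44 cannot be told apart from it.

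Glucose entry and phosphorylation gave no called gene. Slc2a1, the glucose transporter GLUT1, read 4.68, 4.70 and 4.62 in Rb deleted cultures, against 4.17, 4.52 and 4.54 in Rb intact cultures. The groups did not overlap, with Rb intact 1 lowest, and the difference of 0.25 ± 0.11 did not pass (limma adjusted p = 0.146). Without Rb intact 1 it was 0.14. Hk2, the hexokinase isoform typical of glycolytic and tumour cells, read 0.91, 0.98 and 1.02 in Rb deleted cultures, against 0.40, 0.73 and 0.71 in Rb intact cultures. Again every Rb deleted value was above every Rb intact value, and the difference of 0.36 ± 0.10 just missed the threshold (limma adjusted p = 0.0533). Without Rb intact 1 the difference was smaller, at 0.25, but Hk2 passed (limma adjusted p = 0.0140), the remaining arrays lying closer together. Hk1, the widely expressed hexokinase, read 4.41, 4.40 and 4.37 in Rb deleted cultures and 4.31, 4.52 and 4.59 in Rb intact cultures, which overlapped (-0.08 ± 0.08, limma adjusted p = 0.511). Without Rb intact 1, Hk1 fell by 0.16 with a limma adjusted p of 0.0308.

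Of the 7 genes of upper glycolysis, 1 rose. Pfkl, the liver-type subunit of phosphofructokinase, the main control point of glycolysis, read 1.49, 1.42 and 1.47 in Rb deleted cultures, against 1.09, 1.26 and 1.27 in Rb intact cultures. No values overlapped, and Pfkl rose by 0.25 ± 0.07, or 1.19-fold (limma adjusted p = 0.0469). The muscle-type subunit Pfkm read 0.68, 0.62 and 0.64 in Rb deleted cultures and 0.34, 0.72 and 0.69 in Rb intact cultures (0.06 ± 0.11, limma adjusted p = 0.714). Apart from a low Rb intact 1, the Pfkm values of both groups lay together. The platelet-type subunit Pfkp read -0.51, -0.54 and -0.46 in Rb deleted cultures and -0.53, -1.01 and -1.02 in Rb intact cultures (0.35 ± 0.14, limma adjusted p = 0.126). Here Rb intact 1 lay with the Rb deleted arrays, and without it the difference was 0.51 (limma adjusted p = 0.00141). A dimmer Pfkp probe gave -0.08 ± 0.11, so the probes of this gene differed in sign. The 3 phosphofructokinase subunits therefore each showed a different order of the 6 arrays, and 1 passed the test with all arrays in the fit.

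The remaining upper enzymes did not pass. Aldoa, the main aldolase of most tissues, read 6.81, 6.78 and 6.74 in Rb deleted cultures and 6.51, 6.73 and 6.76 in Rb intact cultures (0.11 ± 0.08, limma adjusted p = 0.389). Aldoc, the brain-type aldolase, read 2.71, 2.49 and 2.93 in Rb deleted cultures and 2.74, 2.84 and 2.97 in Rb intact cultures (-0.14 ± 0.13, limma adjusted p = 0.453). Both sets of values overlapped between the groups, and Aldoc spread more among Rb deleted arrays than the groups lay apart. Gpi1, which converts glucose 6-phosphate to fructose 6-phosphate, differed by 0.02 ± 0.06 (interval -0.13 to 0.18), and its 3 probes by -0.02 to 0.03. Tpi1, which interconverts the triose phosphates, differed by 0.04 ± 0.06 (interval -0.10 to 0.19).

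None of the 5 lower glycolysis enzymes was called. Pgk1, the first ATP-forming step and a standard HIF-1 target, came nearest, with 6.03, 6.11 and 6.04 in Rb deleted cultures, against 5.47, 5.80 and 5.86 in Rb intact cultures. The groups were apart and Rb intact 1 was lowest. The difference of 0.35 ± 0.11 (interval 0.09 to 0.61, limma adjusted p = 0.0679) became 0.23 without Rb intact 1 and then passed (limma adjusted p = 0.0154). Pgam1, the phosphoglycerate mutase of most tissues, read 5.97, 5.97 and 5.94 in Rb deleted cultures and 5.90, 5.87 and 5.90 in Rb intact cultures. The arrays separated by group, but by only 0.07 ± 0.05 (limma adjusted p = 0.342). Gapdh, often used as a reference gene, read 6.96, 7.12 and 6.95 in Rb deleted cultures and 7.11, 6.86 and 6.97 in Rb intact cultures. These values overlapped (0.03 ± 0.09, limma adjusted p = 0.817), and its 7 probes differed by -0.16 to 0.15 with mixed signs. Eno1, the ubiquitous enolase, differed by 0.03 ± 0.06 (interval -0.12 to 0.19). Pkm, the pyruvate kinase gene of proliferating and muscle cells, averaged 5.66 ± 0.06 in Rb deleted and 5.66 ± 0.12 in Rb intact cultures (SD, n = 3 each; interval of the difference -0.19 to 0.18).

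Among the 4 genes that steer flux, Pdk1 rose. Pdk1 phosphorylates and inhibits pyruvate dehydrogenase, so that less pyruvate becomes acetyl-CoA, and it read 0.51, 0.49 and 0.61 in Rb deleted cultures, against 0.38, 0.23 and 0.21 in Rb intact cultures. The groups were apart, with Rb intact 1 nearest to the Rb deleted arrays, and the rise was 0.26 ± 0.07, or 1.20-fold (limma adjusted p = 0.0426). Its relative Pdk3 read 0.11, 0.09 and 0.10 in Rb deleted cultures, against -0.03, 0.00 and 0.06 in Rb intact cultures. These did not overlap either, but the difference of 0.09 ± 0.05 did not pass (limma adjusted p = 0.260). Pfkfb3 and Pfkfb4 make fructose 2,6-bisphosphate, the activator of phosphofructokinase. Pfkfb3 differed by -0.10 ± 0.08 (limma adjusted p = 0.388) and Pfkfb4 by -0.02 ± 0.08 (limma adjusted p = 0.860), with overlapping groups. For both, a second probe was dim and did not enter the test.

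Hif1a itself, the oxygen-sensitive subunit of HIF-1, read 2.36, 2.36 and 2.56 in Rb deleted cultures and 2.76, 2.46 and 2.37 in Rb intact cultures. The ranges overlapped (-0.10 ± 0.12, limma adjusted p = 0.574). HIF-1 is known to be controlled mainly by breakdown of the Hif1a protein, which an RNA array does not measure. Of the 7 non-glycolytic hypoxia targets, 1 fell and none rose. Car9, a membrane carbonic anhydrase that regulates pH, read -4.16, -4.15 and -4.16 in Rb deleted cultures, against -3.88, -3.98 and -3.93 in Rb intact cultures. All Rb deleted values were lower and nearly identical, and Car9 fell by 0.23 ± 0.05 (interval -0.35 to -0.10, limma adjusted p = 0.0297), to 85.6% of the intact signal. Car9 was the dimmest of the members.

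Ankrd37 and P4ha1, both induced by hypoxia, were apart between the groups in the opposite direction to Car9. Ankrd37, an ankyrin repeat protein, read -0.41, -0.39 and -0.46 in Rb deleted cultures, against -0.55, -0.88 and -0.77 in Rb intact cultures. P4ha1, a catalytic subunit of the collagen prolyl hydroxylase, read -0.24, -0.25 and -0.24 in Rb deleted cultures, against -0.36, -0.52 and -0.47 in Rb intact cultures. Neither passed with all arrays, at 0.31 ± 0.09 for Ankrd37 (limma adjusted p = 0.0607) and 0.21 ± 0.06 for P4ha1 (limma adjusted p = 0.0566). A dimmer P4ha1 probe gave 0.13 ± 0.14 with overlapping groups (limma adjusted p = 0.562). Without Rb intact 1, the highest of the Rb intact arrays for both, Ankrd37 was higher by 0.41 (limma adjusted p = 0.00456) and P4ha1 by 0.25 (limma adjusted p = 0.00654). The paralog P4ha2 differed by 0.07 ± 0.06 (interval -0.07 to 0.21). Bnip3, a mitophagy receptor, differed by 0.01 ± 0.06 (interval -0.13 to 0.15). Ero1l, the oxidase of disulphide bond formation listed as Ero1a in the RefSeq table, differed by 0.05 ± 0.09, and Egln3, a prolyl hydroxylase that marks Hif1a for breakdown, by 0.04 ± 0.07. None of these 4 passed, their groups overlapped, and a second Egln3 probe gave -0.14 ± 0.13.

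**Figure D3:**
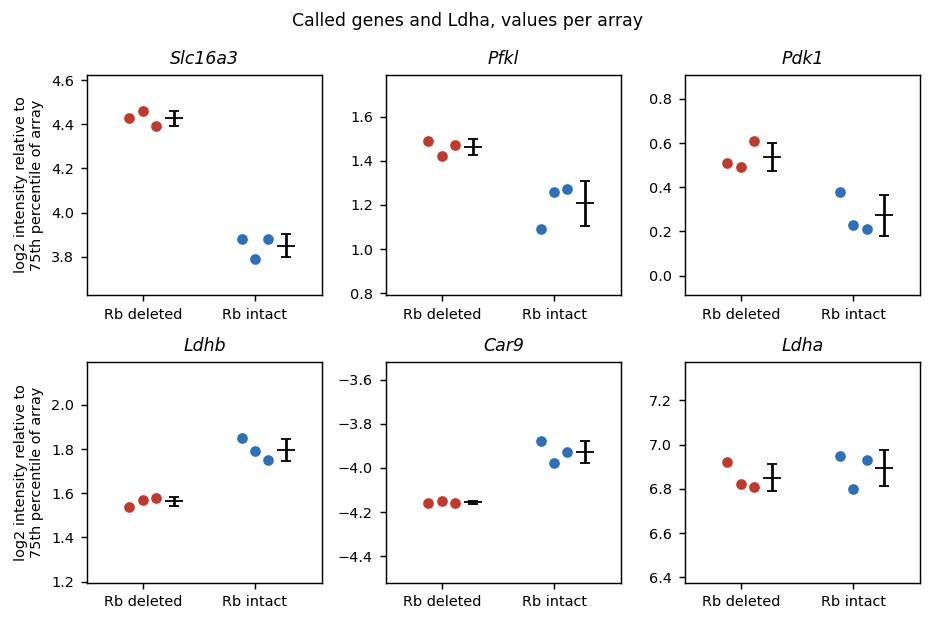
Level on each array, in log2 processed intensity relative to the 75th percentile, for the 5 members that passed the test and for Ldha, with points for arrays, and a dash and bars for the group mean and SD. Slc16a3, Pfkl and Pdk1 are higher and Ldhb and Car9 lower on all 3 Rb deleted arrays, the means differ by 0.57 for Slc16a3 and by 0.23 to 0.26 for the other 4, and the groups of Ldha overlap.

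Set side by side, the enzymes and the hypoxia targets gave like counts and medians. Of the 16 enzymes of glycolysis and lactate dehydrogenase, 1 rose and 1 fell (12.5%), with a median difference of 0.04 on the log2 scale. Of the 7 hypoxia targets outside glycolysis, none rose and 1 fell (14.3%), with a median difference of 0.05. Both called shares compare with 20.4% of all tested genes. Both medians lay close to the 0.01 of all tested genes. Taken per array, the median deviation of the enzymes from their Rb intact means was 0.08, 0.04 and 0.04 in Rb deleted cultures, against -0.04, 0.00 and 0.05 in Rb intact cultures. For the hypoxia targets it was 0.07, 0.04 and 0.07 in Rb deleted cultures, against 0.05, -0.07 and 0.00 in Rb intact cultures. In both lists the Rb deleted arrays overlapped the range of Rb intact arrays, so neither list as a whole was set apart from it. Members of a list are not replicates, so no test was made between the lists. The lists were split by function and not by control through HIF-1. Slc16a3, Pdk1 and Slc2a1 were in neither list, and Pgk1, a standard HIF-1 target, was counted among the enzymes. Of these, Slc16a3 (0.57) and Pdk1 (0.26) rose. That none rose therefore holds for the 7 listed hypoxia targets only, and not for every HIF-1 target among the members.

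Many member values turned on 1 array. Rb intact 1 was the lowest of the 6 arrays for 11 of the 31 members and the highest for 7 (58.1% together, against 62.2% of all genes measured on 6 arrays). Its distance from the mean of Rb intact 2 and 3 exceeded the group difference for 20 of 31 members (64.5%), against 54.3% of all genes. The share was 12 of 16 among the enzymes (75%) and 3 of 7 among the hypoxia targets (42.9%). Without Rb intact 1, 8 members rose (Hk2, Pfkl, Pfkp, Pgk1, Slc16a3, Pdk1, P4ha1 and Ankrd37) and 3 fell (Hk1, Ldhb and Car9), which is 35.5%, against 37.2% of all tested genes in the same fit. The members' share thus stayed near that of all genes. Without any other single array, Slc16a3 alone was called, or 3.23% of members, against 9.13% to 13.1% of all genes. Pfkl, Pdk1, Ldhb and Car9 each lost their call when Rb deleted 1, 2 or 3 or Rb intact 2 or 3 was left out, with differences of 0.19 to 0.28 for Pfkl, 0.23 to 0.32 for Pdk1, -0.26 to -0.21 for Ldhb and -0.25 to -0.20 for Car9 over all 6 such fits, and a limma adjusted p of up to 0.155. All 4 calls were also lost with array median scaling, with no filter on dim probes and with the replicate block (limma adjusted p of 0.108 to 0.120). Pdk1 lost its call with quantile normalization (0.24, limma adjusted p = 0.0674) and with normexp background correction (0.18, limma adjusted p = 0.152). Normexp also ended the calls of Ldhb (-0.22, limma adjusted p = 0.0767) and Car9 (-0.15, limma adjusted p = 0.183), and trend and robust variance that of Car9 (limma adjusted p = 0.113). With the slide as a block, Slc16a3 was again the sole call (0.57, limma adjusted p = 0.0322), with 3.23% of members called against 4.89% of all genes, and in the first slide alone no member was called, against 1.1% of all genes.

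**Figure D4:**
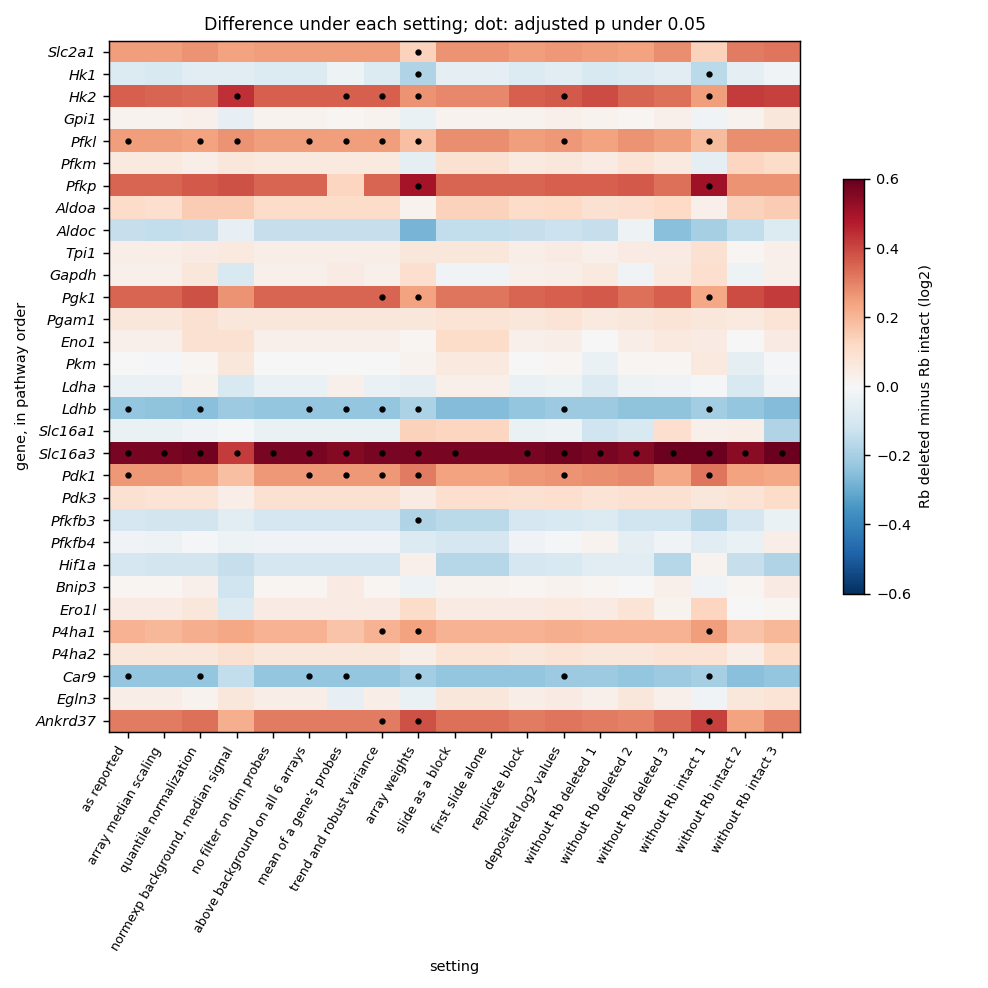
Difference of each member in log2 level, Rb deleted minus Rb intact, as colour, for the reported fit and 18 other settings (columns), with a dot where the limma adjusted p was under 0.05 and genes in pathway order. Slc16a3 keeps a difference of 0.42 to 0.59 and has a dot in 17 of the 18, and dots of other members are most frequent without Rb intact 1 (7 up and 3 down beside Slc16a3) and with array weights (8 up and 4 down beside Slc16a3).

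Other genes of the same pathways were read from 5 lists. These lists were chosen with earlier results of these data known, so a called share above that of all genes can come from the choice. Of 93 listed genes, 80 were tested, 13 rose and 9 fell, or 27.5%, against 20.4% of all tested genes, with a median difference of 0.03. Among 15 tested isoforms and side enzymes of glycolysis, 4 rose and 2 fell (40.0%, median 0.10). Hkdc1, a hexokinase isoform, read -5.38, -5.30 and -5.21 in Rb deleted cultures, against -4.02, -4.02 and -4.13 in Rb intact cultures, and fell to 42.4% of the intact signal (-1.24 ± 0.07, limma adjusted p = 0.00028). The 3 arrays of each group lay close together for Hkdc1 and the groups were well apart. Hkdc1 was well above background on all 6 arrays, but its signal was dim, so the size of its fall is less certain. Bpgm, which makes 2,3-bisphosphoglycerate as a side branch, rose by 0.48 ± 0.05 (limma adjusted p = 0.00204). Pgm1, which links glycogen to glycolysis, rose by 0.32 ± 0.07, and Gpd2, the mitochondrial glycerol phosphate dehydrogenase, by 0.24 ± 0.05. Ldhd, which oxidises D-lactate, fell by 0.42 ± 0.06.

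Genes around pyruvate entry into mitochondria gave 1 rise and 4 falls among 16 tested (31.2%, against 20.4% of all tested genes, median -0.09). Pdk2 fell by 0.52 ± 0.06 (limma adjusted p = 0.00328) and Pdk4 by 0.37 ± 0.09 (limma adjusted p = 0.0319), so these pyruvate dehydrogenase kinases moved in the opposite direction to Pdk1. Pdk2 read -3.13, -3.04 and -3.08 in Rb deleted cultures, against -2.65, -2.54 and -2.49 in Rb intact cultures, which left a clear gap between the groups. Mpc2, a subunit of the mitochondrial pyruvate carrier, fell by 0.19 ± 0.05, and Pcx, pyruvate carboxylase, by 0.52 ± 0.14. Emb, embigin, a chaperone that brings monocarboxylate transporters to the membrane, rose by 0.27 ± 0.05 (limma adjusted p = 0.0138). None of the 8 pentose phosphate genes passed. The nearest were G6pdx, the first step of that pathway (-0.21 ± 0.06, limma adjusted p = 0.0548), and Taldo1, transaldolase (-0.21 ± 0.07, limma adjusted p = 0.0684).

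The HIF pathway factors gave 1 call among 8 tested genes (12.5%, against 20.4% of all tested genes, median 0.00). This was a rise of Egln1, the main oxygen-sensing prolyl hydroxylase (0.25 ± 0.06, limma adjusted p = 0.0367). Among 33 other hypoxia targets tested, 7 rose (21.2%) and 3 fell (9.09%), together 30.3%, with a median of 0.13. Over all tested genes 9.67% rose and 10.8% fell. Vegfa, the angiogenic growth factor, read 1.86, 1.86 and 2.00 in Rb deleted cultures, against 1.23, 1.5 and 1.5 in Rb intact cultures, and rose 1.41-fold (0.50 ± 0.09, limma adjusted p = 0.0138). Ddit4, an inhibitor of mTORC1 signalling, read 3.01, 3.06 and 2.92 in Rb deleted cultures, against 2.53, 2.38 and 2.58 in Rb intact cultures, and also rose 1.41-fold (0.50 ± 0.07, limma adjusted p = 0.00658). In both genes the groups were apart, with Rb intact 1 lowest for Vegfa only. Stc2, the secreted glycoprotein stanniocalcin, rose by 0.54 ± 0.08, Rsbn1 by 0.70 ± 0.09, Higd1a, a mitochondrial inner membrane protein, by 0.24 ± 0.06, and Tfrc, the transferrin receptor, by 0.23 ± 0.06. Angptl4, a lipoprotein lipase inhibitor, read 5.60, 5.60 and 5.52 in Rb deleted cultures, against 6.20, 6.03 and 6.12 in Rb intact cultures, and fell by 0.54 ± 0.06 (limma adjusted p = 0.0028). Ppp1r3c, which directs protein phosphatase to glycogen, fell by 0.66 ± 0.05, and Slc6a8, the creatine transporter, by 0.35 ± 0.05. The signal of Ppp1r3c was dim, at a mean of -5.42 in Rb deleted and -4.76 in Rb intact cultures. Hypoxia targets outside the 31 members thus moved in both directions. The other probe of Vegfa gave 0.48 ± 0.07 (limma adjusted p = 0.00562), while the other probe of Higd1a (0.13 ± 0.07) and the other probes of Tfrc (0.08 ± 0.16 and -0.02 ± 0.13) did not pass.

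Of these 22 calls outside the members, 11 held in each fit that left out 1 array (among them Hkdc1, Bpgm, Ldhd, Pdk2, Ddit4, Stc2, Ppp1r3c, Angptl4, Rsbn1 and Slc6a8). The other 11 were lost in at least 1 such fit, Vegfa when Rb deleted 2 or 3 was left out (0.41 to 0.54 over these fits) and Emb when any Rb deleted array was (0.25 to 0.29). Pgm1, Gpd2, Pdk4, Pcx, Mpc2, Egln1, Higd1a and Tfrc were lost in 4 or 5 of the 6 fits, with a limma adjusted p of up to 0.154, and each passed without Rb intact 1. Most of these calls were lost with the slide as a block and in the first slide alone, where the group difference rested on Rb deleted 1 alone.

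**Figure D5:**
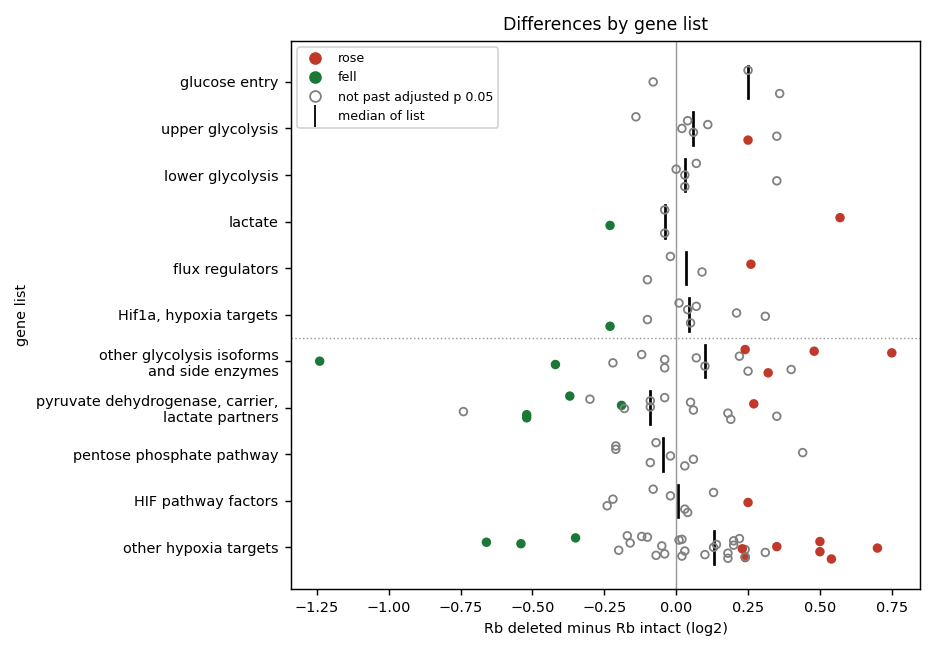
Differences in log2 level, Rb deleted minus Rb intact, of every tested gene in the member groups and in the other lists, with filled points where the limma adjusted p was under 0.05 and a mark for each list's median. List medians lie between -0.09 (pyruvate dehydrogenase and carrier genes) and 0.25 (glucose entry), and single genes spread from -1.24 (Hkdc1) to 0.75.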

How the data were processed

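The 6 arrays, 1 per culture, were read, with 3 cultures in each group. The scanner files hold intensity values from Agilent's Feature Extraction, for which the headers of the deposited files give version 11.0.1.1 and the submitters' processing notes 10.7.3.1. The processed intensity is, per the file headers, background-subtracted and not scaled between arrays. The deposited files also hold flags, valued 0 or 1, for background and outlying spots. The authors deposited a table of log2 values, which equals the log2 intensity minus a constant per array (within 0.01 for 99.96% to 99.97% of 22164 probes), with column medians of -0.52 to -0.49. How its constants were chosen is not given in the sources used here.

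From the scanner files, 43020 non-control spots per array were averaged to 39429 probes, without 134 to 263 outlying spots. Log2 intensity was shifted by each array's 75th percentile. The 23047 probes kept were those marked well above background on each of the 3 arrays of either group. RefSeq accessions named 27427 probes as 20832 genes of GRCm38.p6, 12002 probes had no name, and a gene took its brightest passing probe. The array was designed on mm9, so no coordinates of its probes are given. Start-site windows come from RefSeq on GRCm38.p6.

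The comparison used R 4.3.3 and limma 3.58.1 (lmFit, eBayes, Benjamini-Hochberg) over 13729 genes, without a block. The fit was also run on simulated data with independent noise. That simulation held no shift of a whole array and no slide effect, so it does not bear on either. Differences are Rb deleted minus Rb intact. Pearson's r over probes was 0.9928 to 0.998 within groups and 0.988 to 0.9931 between groups. The number of arrays limits the precision. The text names all members, Rb1, the called genes of each other list (the nearest 2 where none was called), and cell type markers. Some genes that this rule names, which the counts include, are not reported here. Members and lists were chosen with earlier results of these data known, so no list was tested as a whole. Of the 13 listed genes outside the members that were not tested, Slc2a12 was named by no probe and the others did not pass the background filter. A mean spot signal column was not used, so the normexp alternative was run on median signal with an offset of 50.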

Additional observations from a re-analysis of the deposited data

How the results depend on the processing

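Of 558 member differences recomputed under 18 alternatives, 43 changed sign. They came from 12 members, none of them called, and the cause was not tested. With quantile normalization Pkm was 0.01 and Ldha 0.02. With normexp Gpi1 was -0.05, Gapdh -0.09, Pkm 0.07, Bnip3 -0.12 and Ero1l -0.08. With the mean of a gene's probes Ldha was 0.03 and Egln3 -0.05, and with the deposited log2 values Pkm was 0.01. With array weights Gpi1 was -0.04, Pfkm -0.06, Pkm 0.02, Slc16a1 0.14, Hif1a 0.03, Bnip3 -0.03 and Egln3 -0.04. With the slide as a block, and likewise in the first slide alone, Gapdh was -0.02, Pkm 0.06, Ldha 0.03 and Slc16a1 0.13. Leaving out 1 array gave -0.02 to 0.07 for Gpi1, -0.06 to 0.13 for Pfkm, -0.03 to 0.10 for Gapdh, -0.002 to 0.06 for Eno1, -0.06 to 0.06 for Pkm, -0.18 to 0.10 for Slc16a1, -0.07 to 0.04 for Pfkfb4, -0.18 to 0.02 for Hif1a, -0.02 to 0.05 for Bnip3 and -0.02 to 0.08 for Egln3.

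Counts of called genes moved more, and the cause was again not tested. Against 3 members that rose and 2 that fell, array median scaling gave 1 and 0, no filter 1 and 0, trend and robust variance 7 and 1, array weights 9 and 4, the slide as a block 1 and 0, the first slide alone 0 and 0, and an adjusted p under 0.01 gave 1 and 0. The called share of members was 3.23% with array median scaling (17.2% of all genes), 3.23% with no filter (7.15%), 25.8% with trend and robust variance (21.7%), 41.9% with array weights (50.1%), 3.23% with the slide as a block (4.89%), 0% in the first slide alone (1.1%), 9.68% with normexp (18.2%), 12.9% with quantile normalization (20.7%) and 19.4% with the deposited log2 values (20.9%). Normexp left 0 that fell, and an adjusted p under 0.1 gave 7 that rose. In the other lists (13 rose, 9 fell) no filter gave 7 rises, array weights 28 rises and 20 falls, the slide as a block 1 and 3, the first slide 0 and 1, and an adjusted p under 0.01 gave 5 rises. Over all genes (1327 rose, 1479 fell) no filter gave 610 and 880, array weights 3567 and 3298, the slide as a block 201 and 471, the first slide 27 and 124, an adjusted p under 0.01 gave 432 and 698, and one under 0.1 gave 2080 rises. The enzymes' median was 0.08 with the slide as a block and in the first slide alone. Leaving out 1 array gave 1 to 8 members that rose and 0 to 3 that fell, 5 to 24 rises and 6 to 16 falls in the other lists, 456 to 2624 rises and 788 to 2488 falls over all genes, an enzyme median of 0.02 to 0.06 and a hypoxia target median of 0.03 to 0.08.

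The deviations of same-numbered arrays from their group means correlated at -0.0342, -0.05 and 0.015. With 3 arrays per group and Rb intact 1 apart from the others, these values cannot exclude pairing by experiment. With the replicate block 1 member rose (Slc16a3) and 0 fell (3.23%, against 12.1% of all genes), 6 genes of the other lists rose, and 698 genes rose and 963 fell overall.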
